A study of Homo sapiens with 2 samples.

Results

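The genes of sterol and fatty acid synthesis were described in 2 MDA-MB-231 lines, shCon with a control short hairpin RNA and shMPP7 with one that targets MPP7. They were 37 genes named by symbol: the SREBP regulators, the mevalonate and sterol enzymes with 1 sterol carrier, and the enzymes that make, desaturate, elongate and activate fatty acids. All 37 were found, each on 1 line, among the 58233 gene IDs of the expression table. MDA-MB-231 is an established human breast cancer line, and MPP7 is a membrane-associated scaffold protein. Both cultures, grown in DMEM with fetal bovine serum, were infected with lentivirus at a multiplicity of infection of 10, got fresh medium at 12 h, were checked at 72 h (fluorescence microscopy) and spent 7 days in puromycin. Each group was 1 library of total RNA from a stably transduced line, and the labels do not say whether a line was a clone or a pool. A difference between the hairpins therefore cannot be told apart from a difference between any 2 cultures, fewer cells of a kind cannot be told apart from less RNA per cell, and nothing below has a replicate check.

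Cells make cholesterol from acetyl-CoA through mevalonate, isoprenoid phosphates, squalene and lanosterol, and make fatty acids from the same acetyl-CoA through malonyl-CoA. The transcription factors SREBF1 and SREBF2 drive both routes. SCAP carries them from the endoplasmic reticulum to the Golgi for cleavage when sterols are low, and INSIG1 and INSIG2 hold SCAP back when sterols are high. Most enzymes of these routes are textbook SREBP target genes, and many cancer lines express them strongly in culture.

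The promoter of SREBF2 is shown because it alone of the 5 windows below held the classical sterol regulatory element. The windows of SCD, FADS3, EBP and ELOVL6 are shown for their count ratios. Only these stayed on the same side of 1, interval included, under each of 4 count settings, unscaled counts among them. The windows run from 250 bases before to 50 bases after a RefSeq start site on GRCh38.p14 and are written 5′ to 3′ on the strand of the gene. Capitals mark the element TCACNCCAC and the NF-Y box CCAAT, on either strand. The positions were chr22:41832855-41833154 on the plus strand for SREBF2, chr10:100346983-100347282 on the plus strand for SCD, chr11:61891496-61891795 on the minus strand for FADS3, chrX:48521558-48521857 on the plus strand for EBP and chr4:110198566-110198865 on the minus strand for ELOVL6.
SREBF2: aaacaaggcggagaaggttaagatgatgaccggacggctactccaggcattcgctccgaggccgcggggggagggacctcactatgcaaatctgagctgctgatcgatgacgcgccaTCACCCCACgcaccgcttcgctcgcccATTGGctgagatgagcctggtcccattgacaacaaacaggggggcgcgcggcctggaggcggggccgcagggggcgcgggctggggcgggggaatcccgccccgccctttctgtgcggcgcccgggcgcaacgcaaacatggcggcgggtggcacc
SCD: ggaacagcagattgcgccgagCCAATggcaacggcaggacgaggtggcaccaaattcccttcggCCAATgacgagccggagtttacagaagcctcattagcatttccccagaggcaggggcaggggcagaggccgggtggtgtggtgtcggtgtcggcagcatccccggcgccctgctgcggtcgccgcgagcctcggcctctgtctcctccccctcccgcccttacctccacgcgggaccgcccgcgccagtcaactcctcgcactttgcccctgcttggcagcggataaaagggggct
FADS3: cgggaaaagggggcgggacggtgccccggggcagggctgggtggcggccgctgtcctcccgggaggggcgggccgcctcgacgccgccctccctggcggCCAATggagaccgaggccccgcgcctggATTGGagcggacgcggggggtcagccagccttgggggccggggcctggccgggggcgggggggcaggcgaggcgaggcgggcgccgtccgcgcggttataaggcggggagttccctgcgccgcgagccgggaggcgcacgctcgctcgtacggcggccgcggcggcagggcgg
EBP: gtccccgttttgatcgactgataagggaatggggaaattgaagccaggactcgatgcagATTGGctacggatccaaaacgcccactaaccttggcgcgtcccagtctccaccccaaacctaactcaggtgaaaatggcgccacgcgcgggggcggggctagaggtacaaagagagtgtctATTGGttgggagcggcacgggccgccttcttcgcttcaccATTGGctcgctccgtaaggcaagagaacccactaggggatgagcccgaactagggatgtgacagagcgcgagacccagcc
ELOVL6: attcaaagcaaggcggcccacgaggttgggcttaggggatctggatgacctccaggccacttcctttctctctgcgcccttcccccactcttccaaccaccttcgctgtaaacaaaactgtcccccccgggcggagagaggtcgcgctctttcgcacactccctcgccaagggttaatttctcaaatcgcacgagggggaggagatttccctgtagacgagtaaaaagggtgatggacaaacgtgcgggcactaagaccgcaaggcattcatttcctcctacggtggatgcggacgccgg

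RefSeq windows were found for 33 of the 37 genes, 47 windows in all. TCACNCCAC occurred in the windows of 2 genes, SREBF2 and ACSL1, which is 4.26% of the windows against 1.13% of all 35116 promoter windows. In SREBF2 it began 133 bases before the start site, with an inverted NF-Y box at 106 bases. The shorter form CACCCCAC, which overlaps the first motif wherever its variable base is C, was found in the same 2 genes, with a further match at 14 bases in ACSL1, and in 2.79% of all windows. NF-Y boxes were frequent. CCAAT lay in 29 of the 47 windows (61.7%) against 34.6% of all windows and 34.7% of the 22199 windows of protein-coding genes. By gene it lay in 25 of 33 (75.8%), against 39.7% of all genes with a window. The share was 2 of 5 genes in the SREBP system, 5 of 6 in the mevalonate group and 8 of 9 in the sterol branch. It was 2 of 2 in fatty acid synthesis, 3 of 4 among the desaturases and 1 of 1 in sterol transfer. Elongases and acyl-CoA ligases had 2 of 3 each. EBP had 3, SCD and FADS3 had 2 each and ELOVL6 had none. The E-box CACGTG, counted once since it reads the same on both strands, lay in 6 windows (12.8%) against 7.26% of all. By gene it lay in 5 of 33 (15.2%), against 8.77% of all genes with a window. Windows of the same gene could overlap and repeat a site. Those of SC5D held the same E-box, and those of ACLY the same NF-Y boxes. A match is a description of the letters and was not tied to any measured value.

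Estimated counts came to 23928620 in shCon and 24513089 in shMPP7. MPP7 itself was counted 42 times in the shCon library and 21 times in the other. Its ratio of shMPP7 to shCon in CPM, the count scaled to the library total, was 0.488 (95% interval 0.275 to 0.843). All 6 mesenchymal markers of the line were present, with CPM ratios of 1.12 for VIM, 1.01 for AXL, 0.987 for CD44, 0.945 for FN1, 0.883 for CAV1 and 0.836 for ZEB1, so the line's own markers lay on both sides of 1. Of the luminal and epithelial markers CDH1 had 3 and 1 counts, ESR1 3 and 0, PGR 5 and 3, FOXA1 2 and 4, EPCAM 165 and 148 and CLDN4 2844 and 2669. Of the adipocyte markers, ADIPOQ, CIDEC, FABP4 and LEP were listed at 0 in both libraries and PLIN1 had 8 and 10 counts. Of the hepatocyte markers ALB and TTR were listed at 0 and APOA1 had 5 and 4 counts, while SERPINA1 had 11780 and 13039 counts. Of the fibroblast, endothelial and leukocyte markers, LUM was listed at 0 in both libraries, DCN and PTPRC had 0 and 1 counts and VWF 3 and 0, while PDGFRB had 467 and 393, CD14 121 and 176 and PECAM1 68 and 73. The part of these markers in the values below was not tested.

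The sterol and fatty acid genes were well expressed and close to equal in both libraries. Together they took 0.431% of the counts in shCon (exact 95% binomial interval 0.428 to 0.433) and 0.437% in shMPP7 (0.434 to 0.440), a ratio of 1.01 (1.01 to 1.02). Intervals throughout cover counting error only. ACLY, FASN and SCD supplied 28.1% and 28.9% of these counts, and the ratio of the summed counts without them was 1.00 (0.992 to 1.01). The median gene had a CPM ratio of 0.991, beside 0.985 for all 12154 genes with at least 100 counts over both libraries, a minimum that all 37 passed. No gene of the set was 1.2-fold higher in shMPP7, where 4.54% of all genes were. Only TM7SF2 was 1.2-fold lower, where 11.3% of all genes were, and its interval included 1. None was 2-fold apart in either direction, against 0.156% of all genes higher and 0.107% lower.

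In CPM, 17 of the 37 genes had a ratio above 1, against 44.0% of all genes. The interval lay above 1 for 9 of them, where it did for 13.8% of all genes, and below 1 for 8, where it did for 21.5%. These genes have more counts than most, which narrows the interval. Among 3915 genes within the interquartile range of their counts (1849 to 6927), 15.9% had an interval above 1 and 25.4% below it, and of the 19 set members there 5 and 4 did. The split of 9 above and 8 below depended on the scaling. It was 12 and 4 with TMM factors, where 18.5% of all genes had an interval above 1 and 17.5% below it. It was 13 and 3 with median-of-ratios size factors, where the shares of all genes were 20.4% and 16.3%. The ratio of these size factors between the libraries was 1, beside 1.02 for the library totals. That setting therefore left the counts unscaled for depth. The split was 4 and 8, beside 8.90% and 20.8% of all genes, after removal of the trend with GC content and transcript length over all protein-coding genes. That removal took the median ratio to 0.999 for the set and 0.975 for all genes. Only SCD and FADS3 lay above 1, and only EBP and ELOVL6 below it, in all 4 of these settings, the unscaled counts among them. The share of all genes that did so was not computed.

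**Figure D1:**
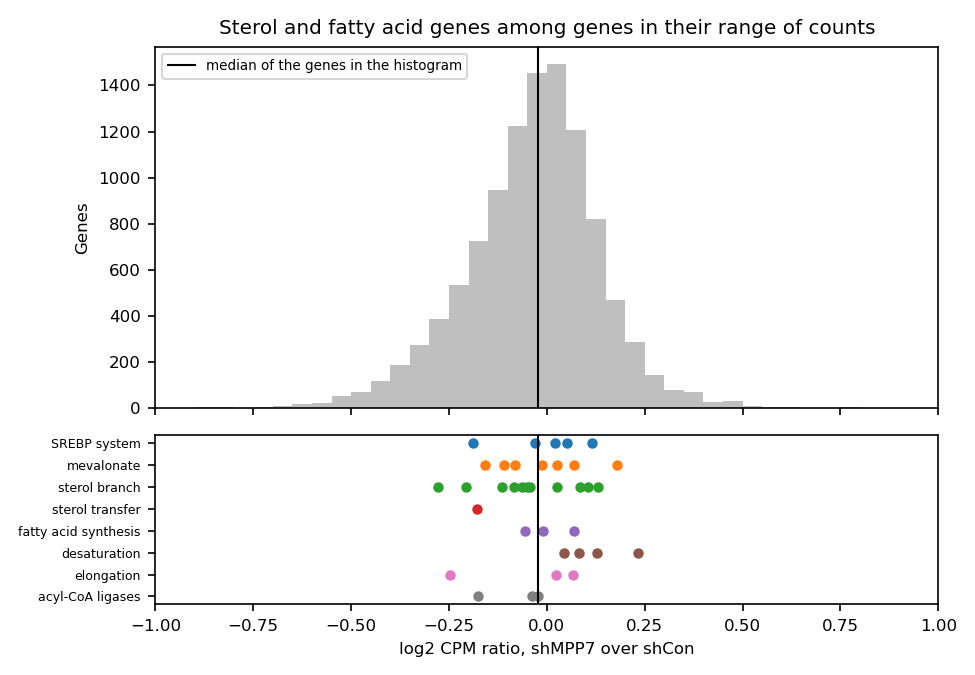
The histogram counts genes by log2 CPM ratio (shMPP7 over shCon) for the 10748 genes whose summed counts lie within the range of the sterol and fatty acid genes, and 13 genes lie beyond the axis. The lower panel gives each sterol and fatty acid gene as a point by role. The line marks the median of the histogram, -0.02, and all 4 desaturases lie to its right.

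The SREBP system held 1 gene with an interval above 1 and 1 below it. SREBF1, the factor that acts mainly on fatty acid genes, was counted 3283 times in shCon and 3644 times in shMPP7, at 49.95 and 53.9 FPKM. Its CPM ratio was 1.08 (1.03 to 1.14), and 1.03 (0.982 to 1.08) with the length and GC trend removed. SREBF2, which acts mainly on sterol genes, had 4384 and 4555 counts and 36.6 and 38.5 FPKM, a ratio of 1.01 (0.973 to 1.06). The escort SCAP had 3168 and 3177 counts and 39.1 and 43.7 FPKM. Its ratio was 0.979 (0.932 to 1.03), and 0.930 (0.885 to 0.977) with the trend removed. All 3 were therefore under 1.2-fold apart.

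The INSIG genes differed in level and in ratio. INSIG1, itself an SREBP target, had 2674 and 2841 counts and 55.2 and 57.5 FPKM, a CPM ratio of 1.04 (0.983 to 1.09). INSIG2 was the scarcer of the pair, with 604 and 543 counts and 11.8 and 11.0 FPKM, and a ratio of 0.878 (0.780 to 0.987), or 0.953 (0.847 to 1.07) with the length and GC trend removed. INSIG1 was thus 4.67 times INSIG2 in FPKM in shCon and 5.23 times in shMPP7. The INSIG1 to INSIG2 ratio of counts, which needs no scaling between libraries, was 1.18 times higher in shMPP7 (1.04 to 1.35). With the length and GC trend removed it was 1.08 times higher. The INSIG2 transcript has a GC content of 35.4%, and INSIG2 is 1 of the 7 low-GC members described further on.

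**Figure D2:**
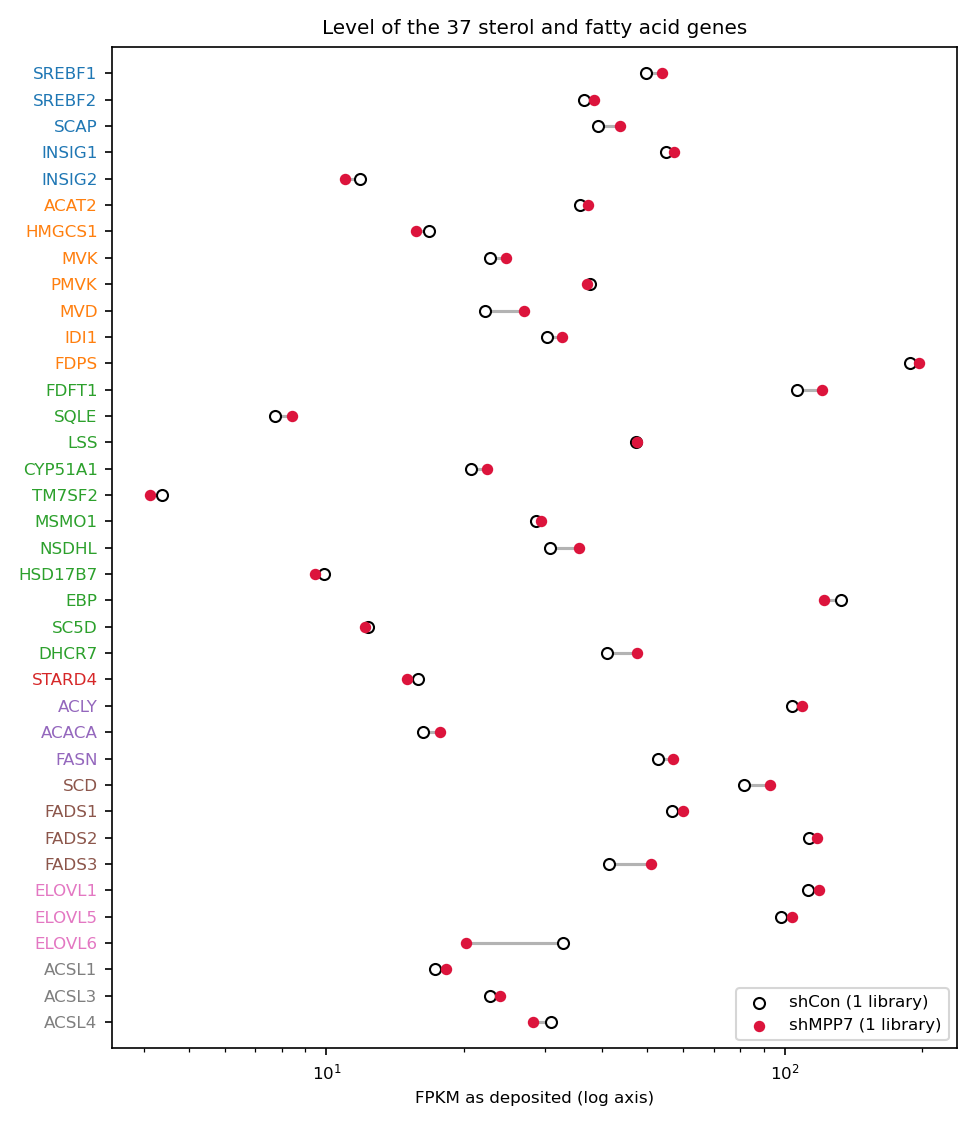
FPKM as deposited, on a log axis, for the 37 genes in the shCon library (open circles) and the shMPP7 library (red points). Label colours mark roles, in order from the SREBP system (top) to the acyl-CoA ligases. Levels ran from about 4.26 FPKM for TM7SF2 to 192 for FDPS (means of both libraries), and ELOVL6 shows the widest gap between its points.

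Among the 7 mevalonate genes, the median CPM ratio was 0.991, with 1 interval above 1 and 2 below it. HMGCS1, which joins acetyl-CoA and acetoacetyl-CoA into HMG-CoA, had 860 and 790 counts and 16.8 and 15.7 FPKM, a ratio of 0.897 (0.813 to 0.989). Its interval, like those of INSIG2, ACAT2 and LSS, included 1 with TMM or median-of-ratios factors, and it did so with the trend removed (0.938, 0.851 to 1.03). ACAT2, the thiolase of the preceding step, had 2207 and 2098 counts, giving a ratio of 0.928 (0.874 to 0.986), but 35.7 and 37.3 FPKM, so its direction turned with the measure. With the trend removed its CPM ratio was 0.902 (0.850 to 0.958). GENCODE 29 exons of SOD2 and TCP1 on the opposite strand overlap those of ACAT2, with the strand of the counting not given in the sources used here. MVD, the decarboxylase that makes isopentenyl diphosphate, had 760 and 882 counts and 22.2 and 27.0 FPKM. Its ratio was 1.13 (1.03 to 1.25), and 1.06 (0.957 to 1.16) with the trend removed.

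The kinases and the isoprenoid enzymes of the route had CPM intervals that included 1. Mevalonate kinase MVK had a CPM ratio of 1.05 (0.957 to 1.15) and phosphomevalonate kinase PMVK 0.946 (0.860 to 1.04). With the trend removed PMVK stood at 0.864 (0.786 to 0.949). The isomerase IDI1 stood at 0.991 (0.916 to 1.07). FDPS, which makes farnesyl diphosphate, stood at 1.02 (0.975 to 1.06) and was the most abundant gene of the set per length, with 188 and 196 FPKM. HMGCS1 to FDPS thus spanned 16.8 to 188 FPKM within shCon.

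The 11 genes of the sterol branch had a median CPM ratio of 0.965, with 3 intervals above 1 and 2 below it. EBP, the isomerase that shifts a double bond within the sterol ring, was the clearest low value. It had 1875 and 1664 counts and 133 and 122 FPKM, a ratio of 0.866 (0.810 to 0.926). With the trend removed the ratio was 0.809 (0.757 to 0.865). EBP nevertheless stayed second in FPKM among the 37 genes in both libraries. Lanosterol synthase LSS had a CPM ratio of 0.944 (0.903 to 0.987), and 0.907 (0.867 to 0.948) with the trend removed, but a FPKM ratio of 1.01.

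Values above 1 in the branch were small. NSDHL, a dehydrogenase of sterol demethylation, had 1109 and 1243 counts and 30.8 and 35.5 FPKM, a CPM ratio of 1.09 (1.01 to 1.19). DHCR7, which reduces a ring double bond in the last steps to cholesterol, stood at 1.08 (1.01 to 1.14), and squalene synthase FDFT1 at 1.06 (1.01 to 1.11). The intervals of all 3 included 1 with the trend removed. EBP and DHCR7, late steps with the desaturase SC5D between them, therefore lay on opposite sides of 1 in CPM.

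The remaining sterol enzymes had intervals that included 1. TM7SF2, a sterol reductase, was the scarcest gene of the set, with 116 and 98 counts, 4.38 and 4.13 FPKM and a ratio of 0.825 (0.624 to 1.09). Squalene epoxidase SQLE stood at 0.970 (0.856 to 1.1004), the methyl oxidase MSMO1 at 0.965 (0.892 to 1.04) and the desaturase SC5D at 0.923 (0.824 to 1.03). CYP51A1, the lanosterol demethylase, stood at 1.02 (0.944 to 1.099), and 79.4% of its exon bases are shared with a read-through annotation on the same strand. HSD17B7 stood at 0.958 (0.801 to 1.14). It has a pseudogene with 99.5% identity over 410 bases, HSD17B7P2, which had 5 and 13.8 counts. STARD4, a carrier that moves cholesterol between membranes, had 762 and 690 counts and 15.8 and 15.0 FPKM. Its ratio was 0.884 (0.796 to 0.981), and 0.999 (0.9002 to 1.11) with the trend removed.

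The 3 enzymes that build palmitate were near equal. ACLY, which makes cytosolic acetyl-CoA from citrate, had 9686 and 9857 counts and 104 and 109 FPKM. Its CPM ratio was 0.993 (0.966 to 1.02), and 0.971 (0.944 to 0.999) with the trend removed. ACACA, which makes malonyl-CoA, had 2672 and 2634 counts and 16.2 and 17.7 FPKM, a ratio of 0.962 (0.912 to 1.02). Fatty acid synthase FASN had 9101 and 9782 counts and 52.8 and 57.1 FPKM, a ratio of 1.05 (1.02 to 1.08), and 1.01 (0.984 to 1.04) with the trend removed.

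The desaturases were the one role in which every gene had a CPM ratio above 1, and all 4 stayed above it in every other scaling, with the trend removed and in FPKM. Their summed counts were 22840 in shCon and 25149 in shMPP7, a ratio of 1.07 (1.06 to 1.09). FADS3, a desaturase of the FADS cluster that acts on sphingoid bases, had the highest ratio of the 37 genes. It had 1506 and 1814 counts and 41.3 and 51.1 FPKM, a ratio of 1.18 (1.098 to 1.26), and 1.14 (1.07 to 1.22) with the trend removed. For FADS3 the trend used a retained-intron transcript of 5314 bases, while its longest protein-coding one has 1779. Its counts and FPKM imply 1524 bases in shCon and 1449 in shMPP7. The trend-removed ratio at a shorter length was not computed. SCD, the stearoyl-CoA desaturase that makes oleate, had 10125 and 11326 counts and 81.5 and 92.8 FPKM. Its ratio was 1.09 (1.06 to 1.12), and 1.11 (1.08 to 1.14) with the trend removed.

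FADS1 and FADS2, the front-end desaturases of polyunsaturated fatty acid synthesis, lay closer to 1. FADS2 had 6206 and 6729 counts and 113 and 118 FPKM, a CPM ratio of 1.06 (1.02 to 1.096), and 1.02 (0.983 to 1.05) with the trend removed. FADS1 stood at 1.03 (0.991 to 1.07). The 3 FADS genes are neighbours on chromosome 11, with FADS2 at 61792980 to 61867354 on the plus strand and FADS1 at 61799625 to 61829318 and FADS3 at 61873519 to 61892051 on the minus strand (GRCh38). Exons of FADS1 and FADS2 share 490 bases on opposite strands. Within the cluster, FADS1 to FADS3 in counts was 3.32 in shCon and 2.91 in shMPP7, a change of 0.876 (0.809 to 0.948), and FADS2 to FADS3 was 0.9002 (0.833 to 0.972) of its shCon value. FADS1 to FADS2 was 0.973 (0.924 to 1.03) of it.

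**Figure D3:**
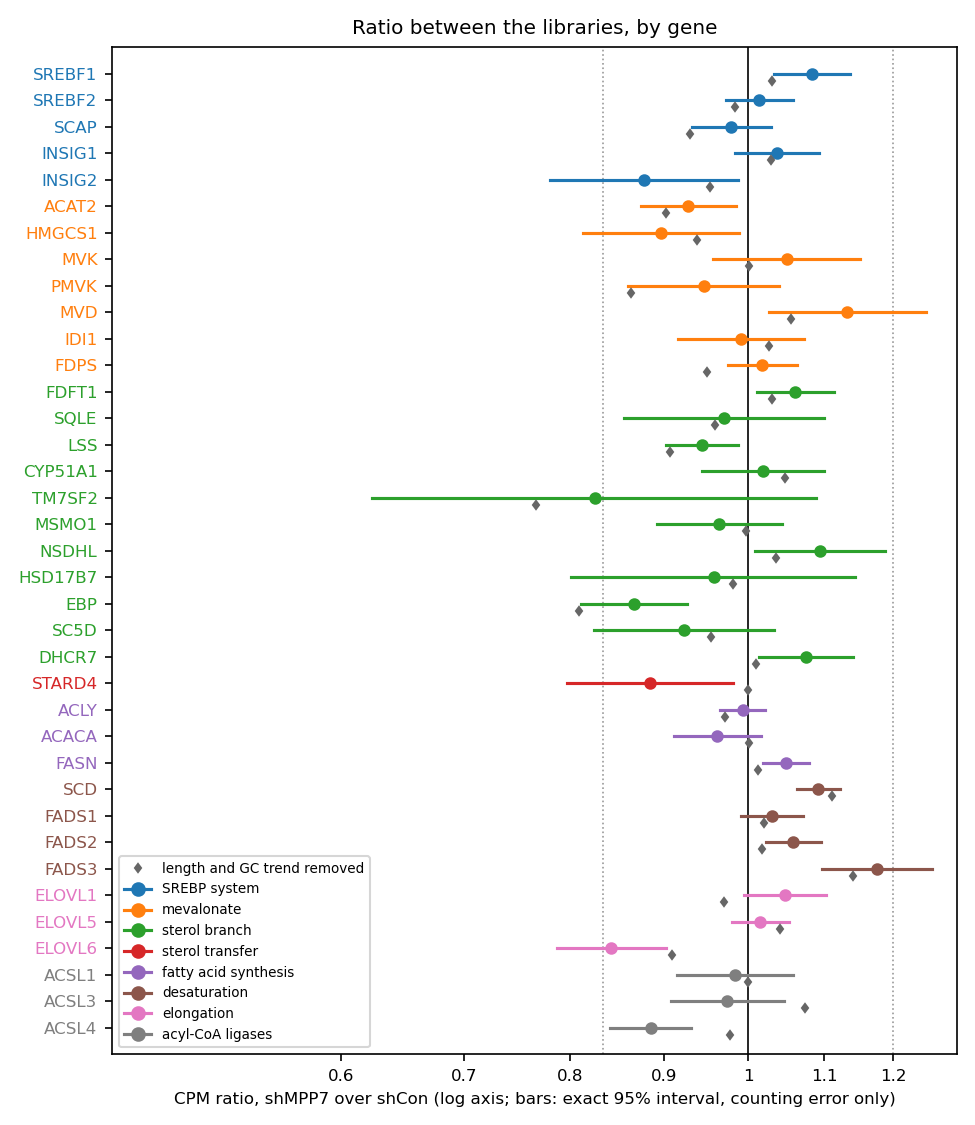
CPM ratio of shMPP7 over shCon for each gene on a log axis, with bars for the exact 95% interval (counting error only), colours by role and small diamonds for the ratio with the length and GC trend removed. Dotted lines mark 1.2-fold. FADS3 at 1.18 and SCD at 1.09 lie right of 1, EBP at 0.866 and ELOVL6 at 0.842 lie left of it, and the widest bar is that of TM7SF2.

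Among the elongases, ELOVL6 was lower in shMPP7 in every setting tried, while ELOVL5 was above 1 in each and ELOVL1 in all but the one with the trend removed, where it stood at 0.970. ELOVL6, which lengthens palmitate, was counted 1798 and 1551 times, at a ratio of 0.842 (0.786 to 0.902), and 0.908 (0.848 to 0.973) with the trend removed. ELOVL1, which makes very long saturated chains, had 2816 and 3022 counts and 112 and 119 FPKM, a ratio of 1.05 (0.995 to 1.103). ELOVL5, the elongase of polyunsaturated chains, had 5844 and 6081 counts and 98.4 and 104 FPKM, a ratio of 1.02 (0.980 to 1.05). ELOVL5 to ELOVL6 in counts was 3.25 in shCon and 3.92 in shMPP7, 1.21 times higher (1.12 to 1.304), and 1.15 times higher with the trend removed.

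ELOVL6 was also the gene whose deposited FPKM parted most from its counts. It had 32.9 FPKM in shCon and 20.1 in shMPP7, a ratio of 0.613, and went from rank 20 to rank 28 among the 37 genes. Over all genes the FPKM ratio was 1.04 times the CPM ratio at the median, but for ELOVL6 it was 0.727 times. Of 12152 genes with at least 100 counts and both FPKM above 0, 1.23% were shifted down as far. The transcript length implied by its counts and FPKM was 2285 bases in shCon and 3141 in shMPP7, and GENCODE 29 lists ELOVL6 transcripts of 3090 and 6454 bases among shorter ones. The table holds no values per transcript, so a different mix of transcripts was not tested. No other gene of the set was shifted 1.2-fold from the median, where 10.3% of all genes were.

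**Figure D4:**
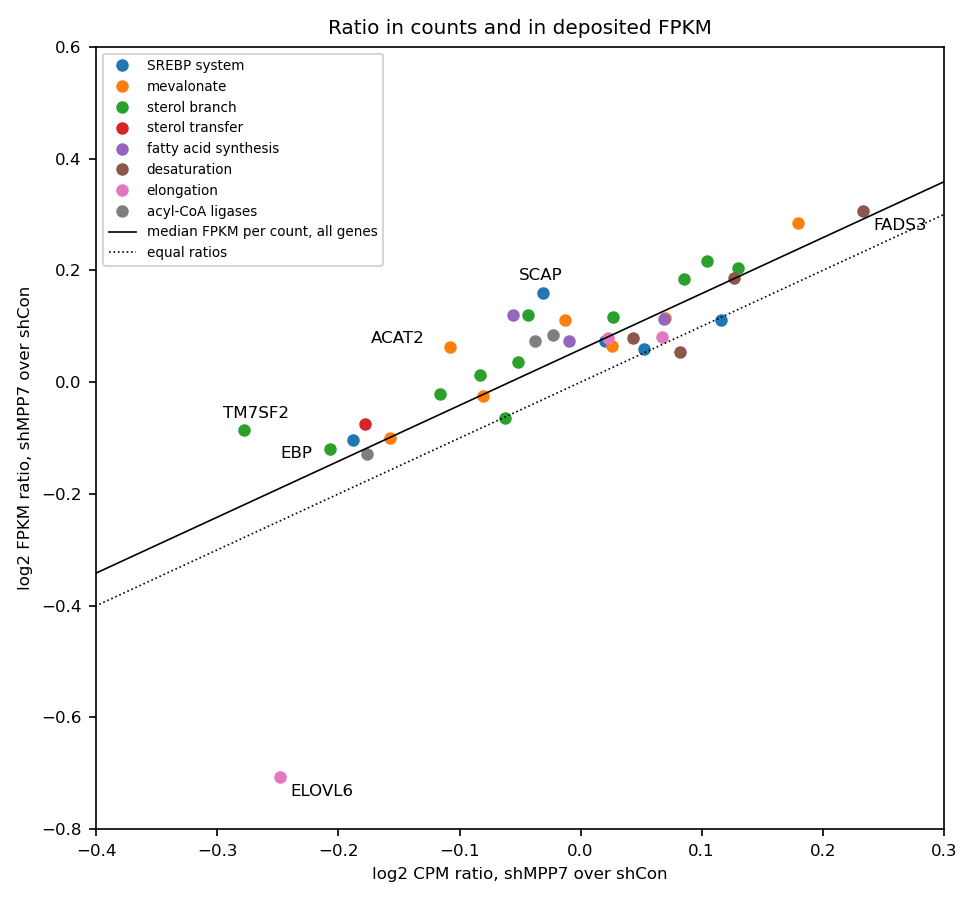
The log2 FPKM ratio as deposited (no pseudocount) against the log2 CPM ratio, shMPP7 over shCon, 1 point per gene, coloured by role. The solid line is the median FPKM per count over all genes and the dotted line is equality. ELOVL6 lies far under both lines, at a FPKM ratio of 0.613 and a CPM ratio of 0.842.

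All 3 acyl-CoA ligases, which activate fatty acids for use, had CPM ratios below 1, but ACSL1 and ACSL3 were above 1 in FPKM and with the trend removed, and ACSL1 also with TMM or median-of-ratios factors. ACSL4, which prefers arachidonate, had 3148 and 2854 counts and 31.0 and 28.3 FPKM, a ratio of 0.885 (0.841 to 0.931), and 0.978 (0.929 to 1.03) with the trend removed. ACSL3 had 1545 and 1542 counts and 22.7 and 23.9 FPKM, a ratio of 0.974 (0.907 to 1.05). ACSL1 had 1470 and 1482 counts and 17.2 and 18.3 FPKM, a ratio of 0.984 (0.915 to 1.06). ACSL3 to ACSL4 in counts was 1.101 times higher in shMPP7 (1.01 to 1.202). Of the 11 pairs of paralogs compared in this way, several of which share a gene, 8 had an interval that left out 1. The same share over other gene pairs was not computed. Nor were intervals of the pairs with the length and GC trend removed. With it removed, ELOVL1 over ELOVL6 changed 1.07-fold instead of 1.24-fold, and ACSL1 over ACSL4 1.02-fold instead of 1.11-fold. SREBF1 over SREBF2 changed 1.05-fold instead of 1.07-fold, and ACSL3 over ACSL4 1.099-fold. FADS1 and FADS2 over FADS3 stood at 0.894 and 0.891 of their shCon values.

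In deposited FPKM the set looked higher than in counts. Of the 37 genes 27 had a FPKM ratio above 1, where 58.9% of all 12933 genes at a mean FPKM of 1 or more did, against 17 in CPM. At least 1.2-fold apart in FPKM, in either direction, were 3 of the 37 genes, beside 26.9% of those genes. These were FADS3 at 1.24 and MVD at 1.22, higher in shMPP7, and ELOVL6 at 0.613, lower in it.

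The ratio moved with GC content over all genes, and the set followed it in part. Of the protein-coding genes that passed the count minimum, the fifth with the lowest GC content had a median log2 CPM ratio of -0.16 and the fifth with the highest 0.05. The 7 set members at the low end (INSIG2, HMGCS1, MSMO1, SC5D, STARD4, ACSL3 and ACSL4) also had a median of -0.16. The 10 at the high end had a median of 0.07. Of the 8 intervals below 1, 4 remained below it with the trend removed (ACAT2, LSS, EBP and ELOVL6), and of the 9 above it, 2 (SCD and FADS3). The share of all genes whose interval kept its side was not computed. Removal of the trend put 4 further intervals below 1 (SCAP, PMVK, FDPS and ACLY) and 2 above it (ELOVL5 and ACSL3). The trend-removed scale was not centred on 1. The median of all genes on it was 0.975, with 20.8% of intervals below 1 and 8.90% above it. ACLY, at 0.971 (0.944 to 0.999), lay near that median.

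The other genes of these pathways were taken from 7 lists of 90 names, of which 88 were in the table and 78 had at least 100 counts. Their median CPM ratio was 1.01, with 3 genes at least 1.2-fold higher and 3 lower, where 4.54% and 11.3% of all genes were. Of their intervals 15 lay above 1 and 13 below it, beside 13.8% and 21.5% of all genes, and 10 and 8 did so with the length and GC trend removed, where the median was 0.992. Glycerolipid synthesis and lipid droplet genes had the highest median of the 7 lists, 1.05 over 14 genes, with 6 intervals above 1 and 2 below it. With the trend removed the median was 1.02, with 1 interval above 1 and 2 below it. DGAT1 and DGAT2, which close triglyceride synthesis, had 554 and 734 counts at a ratio of 1.29 (1.16 to 1.45) and 118 and 151 counts at 1.25 (0.975 to 1.60). Of 12 genes of sterol traffic, storage and export, 3 had an interval above 1 and 2 below it. NR1H3, the oxysterol receptor LXR alpha, had 222 and 299 counts and stood at 1.31 (1.101 to 1.57). SCARB1, a lipoprotein receptor, stood at 1.15 (1.08 to 1.22). With the trend removed NR1H3 stood at 1.24 (1.04 to 1.49) and SCARB1 at 1.12 (1.05 to 1.19). Of the 12 trend-removed intervals of this list 2 lay above 1 and 2 below it, at a median ratio of 0.984.

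The lists closest to SREBP itself showed no common direction in CPM. Of 11 genes of SREBP cleavage and INSIG turnover, 8 had a ratio above 1, and 2 had an interval above 1 and 2 below it. With the trend removed 3 intervals of this list lay above 1 and 0 below it, at a median ratio of 0.998. MBTPS2, a Golgi protease that cleaves SREBP, had 973 and 835 counts and stood at 0.837 (0.763 to 0.920), or 0.927 (0.845 to 1.02) with the trend removed, and the ubiquitin ligase RNF139 stood at 1.12 (0.957 to 1.32). Of 7 promoter partners of SREBP, 1 had an interval above 1 and 2 below it, with NFYB, a subunit of NF-Y, at 0.852 (0.749 to 0.968) and CREB1 at 0.881 (0.8002 to 0.970). With the trend removed NFYB stood at 0.927 (0.815 to 1.05) and CREB1 at 1.01 (0.921 to 1.12), so both intervals included 1. Of the 7 intervals 1 then lay above 1 and 1 below it. Of 9 other isoprenoid and sterol enzymes none had an interval above 1 and 3 had one below it, among them GGPS1 at 0.831 (0.712 to 0.970) and LBR at 0.885 (0.843 to 0.929). With the trend removed only 1 of these 9 intervals lay below 1, with GGPS1 at 0.857 (0.734 to 1.0002) and LBR at 0.951 (0.906 to 0.999). Of 16 other genes of fatty acid supply, elongation and activation, 3 had an interval above 1 and 2 below it. The latter were the elongase ELOVL7 at 0.797 (0.654 to 0.971) and the carboxylase ACACB at 0.827 (0.708 to 0.968). The trend-removed ratio of ELOVL7 was 0.874 (0.717 to 1.07), and 2 of the 16 trend-removed intervals lay above 1 and 1 below it. All 9 fatty acid oxidation genes had intervals that included 1, with ACADM at 0.923 (0.821 to 1.04). ACADVL, named after its value was seen, stood at 0.960 (0.924 to 0.998) with the trend removed.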

How the data were processed

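Total RNA of 1 shCon and 1 shMPP7 culture was sequenced, with the groups as the genotype labels give them. Per the file headers the deposited table gives, per gene and library, an estimated count and a FPKM value (scaled by the authors for transcript length and library size). Per the submitters' processing notes TopHat2 2.0.9, Cuffdiff and hg19 were named without role or order, with the counter not given in the sources used here. The table holds no coordinates. Positions, exon overlaps, transcript lengths and GC contents came from GENCODE 29 (GRCh38), which held 99.3% of the gene IDs, and promoters from RefSeq (GRCh38.p14). Of 47 promoter windows, the 20 bases from the start site occurred in a GENCODE transcript of the gene for 41.

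CPM is the estimated count over the library total. Ratios carry exact 95% Clopper-Pearson intervals, conditional on the summed count after rounding to whole numbers, and paralog pairs exact conditional odds ratio intervals. Reads without molecular identifiers are not independent molecules. With 1 library per group no p-value was computed. Where a name had several lines (215 names), the line with the largest mean FPKM was used. The trend was a quadratic fit of the log2 CPM ratio on log10 length and GC content of the longest transcript over 11365 protein-coding genes past a minimum of 100 counts. Its error is not in the intervals. Near-identical copies were searched with blastn 2.17.0 (at least 97% identity over 100 bases), and TMM factors came from edgeR 4.0.16. Values in full are for the SREBP system, any gene 1.2-fold apart and the 3 largest ratios per role, with the 2 largest per pathway list, of which 1 gene is not reported here. The genes and lists were chosen with earlier results of these data known.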

Additional observations from a re-analysis of the deposited data

How the results depend on the processing

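No paired analysis was possible because each group has 1 library, and for the same reason no replicate could be left out. The ratio of the summed counts (1.01) was 1.04 with median-of-ratios size factors, 1.03 with TMM factors, 1.05 in FPKM with a pseudocount of 1 or 0.1 and 1.00 with the trend removed. The count at least 1.2-fold higher (0) was 1 with size factors, 2 in FPKM with either pseudocount and 2 under a 1.1-fold rule. The count at least 1.2-fold lower (1) was 0 with size factors, 0 with TMM factors, 2 with the trend removed, 7 under a 1.1-fold rule and 0 under a 1.5-fold rule. Intervals below 1 (8) were 3 with size factors and 4 with TMM factors, and intervals above 1 (9) were 4 with the trend removed. For the pathway lists the median ratio (1.01) was 1.05 in FPKM with either pseudocount, 1.03 with size factors or TMM factors and 0.992 with the trend removed. Their count at least 1.2-fold higher (3) was 8 in FPKM with a pseudocount of 1 and 9 with 0.1. Their count at least 1.2-fold lower (3) was 1 with size factors, 1 with TMM factors, 1 with the trend removed and 5 without a minimum count. The size rules moved these counts by their own construction. Median-of-ratios size factors left the counts unscaled for depth. These and the TMM factors each multiplied every CPM ratio by a constant, so the moves with them followed from that constant. For the other settings the cause was not tested. ACAT2 turned to 1.04 in FPKM with either pseudocount and LSS to 1.01. The median ratio of the set (0.991) was 1.02 with size factors, 1.01 with TMM factors and 1.05 in FPKM, while that of all genes was 1.01, 1.00 and 1.03. The motif CACCCCAC was found in the same 2 genes as TCACNCCAC. Counting error alone gave intervals as wide as 0.624 to 1.09 for TM7SF2, and a smaller difference in such a gene was not detectable at this depth.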
